A study of Mus musculus with 8 samples.

Results

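Mest, Sfrp5 and Bmp3 are known as markers of fat expansion whose levels differ widely between mice of the same strain. They were examined here together with Trp53inp2, Nnat and Peg3 in epididymal white adipose tissue (eWAT), the fat pad beside the epididymis. These are 6 of the 22180 genes that the array measured with an unambiguous symbol, chosen by name, with earlier results of these data known. For each, the probe sets annotated to that gene alone were taken, and where there were several the brightest over all arrays was kept. Only Nnat had more than 1 such probe set, with 2. All 6 passed the filter on low values and so were among the 11090 genes tested.

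The tissue came from 8 male mice on a C57BL/6J background, 14 weeks old, with 1 array per mouse. There were 3 wild type (WT) mice and 5 mice lacking Abhd15 (Abhd15 KO). All were kept on normal chow, fasted overnight and given chow again for 1 h before the tissue was frozen, so both groups share the early refed state. How the Abhd15 allele was made, in which cells it is lost, and whether the mice were littermates could not be learned from the labels. Values are log2 signals made by robust multi-array averaging (RMA), in which a step of 1 is a doubling. Signals of different probe sets cannot be set against each other, so levels are compared only within a gene. Because this is whole tissue, fewer cells of a type and less RNA per cell cannot be told apart.

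MEST, the product of an imprinted gene transcribed from the paternal allele, is a membrane protein of the alpha/beta-hydrolase family, as is ABHD15, and its transcript is linked to fat mass expansion. SFRP5 is a secreted protein that binds Wnt ligands, and BMP3 is an atypical bone morphogenetic protein that opposes the signalling of others of its family. TRP53INP2 acts in autophagy and as a nuclear coactivator. NNAT (neuronatin) is a small endoplasmic reticulum membrane protein and PEG3 a large zinc finger protein, and both genes are imprinted and paternally expressed. In fat depots, Mest and Sfrp5 are known to climb with a positive energy balance and to fall with food restriction.

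The tissue label was borne out by its defining markers. Of 12 markers of mature adipocytes 10 were measured and all 10 were tested, and their mean log2 value was 10.69 to 10.75 in WT and 10.31 to 10.78 in KO. The 6 measured markers of epididymis and seminal vesicle averaged 2.08 to 2.56 in 6 arrays but 4.36 in WT 1 and 4.56 in KO 4, and all 6 lay below the level filter when averaged over the arrays. In WT 1 the seminal vesicle genes were raised (Svs2 6.38, Svs4 6.45, Svs5 7.43), and in KO 4 the epididymis genes Lcn5 (8.56) and Adam7 (10.24). Adam7 also read 4.93 in KO 3 and 3.73 in KO 5, and Svs5 4.51 in WT 2. The 7 measured testis germ cell markers averaged 6.50 in WT 1, 5.29 in WT 2 and 4.91 in KO 4, against 3.38 to 3.98 in the other 5 arrays. The 10 immediate early genes, which respond within minutes to stimulation or handling, averaged 6.58 in KO 1, 6.64 in KO 2 and 5.68 in KO 3, against 4.55 to 4.98 in the other 5. Abhd15 itself read 6.15 to 6.45 in WT and 5.60 to 6.27 in KO at its brighter probe set, with KO 3 inside the WT range. The labels do not say whether that probe set lies in the deleted part, so it does not check them.

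Mest was lower in the Abhd15 KO mice. Its log2 value was 9.25 in WT 1, 10.13 in WT 2 and 10.10 in WT 3. In KO it was 9.09, 9.42, 8.50, 8.26 and 8.59 in replicates 1 to 5. The KO arrays 1, 3, 4 and 5 lay below every WT array, and KO 2 lay above WT 1, so the groups overlapped by that 1 array. WT averaged 9.83 ± 0.496 (SD, n = 3) and KO 8.77 ± 0.474 (SD, n = 5), so that KO minus WT was -1.05 on the log2 scale (SE 0.291, 95% confidence interval -1.70 to -0.41), or 0.482 times the WT level. The difference did not pass the threshold of 0.05 after Benjamini-Hochberg adjustment over all genes tested (limma adjusted p = 0.291). Over all 56 divisions of the arrays into 3 and 5, the exact permutation test gave a two-sided p = 0.0714, where 0.0357 is the smallest it can give. Of all genes tested, 1.60% had a smaller limma p. Endothelial markers were also lower in KO: 6 of the 7, 3 of them with an unadjusted limma p under 0.05, while Cldn5 was higher with such a p. Of the 10 mature adipocyte markers 8 were lower and 2 higher in KO. Only 1 of them, Pparg, had such a p (log2 difference -0.47, limma adjusted p = 0.331). Among all genes tested, 44.8% were higher in KO, and 6.46% were lower and 4.04% higher with such a p. The mean of the endothelial markers was 7.77 to 8.14 in WT and 7.53 to 7.92 in KO. The part of either marker set in the Mest difference was not tested.

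Mest has 2 groups of annotated start sites. The promoter of the downstream group is shown because Mest was the gene with the smallest p of the 6 and this start is the richer of the 2 in CpG. It lies on the plus strand at chr6:30737800-30738099 (GRCm38.p6, RefSeq), runs from 250 bases before to 50 after the start, holds 17 CpG dinucleotides against a median of 7 over 32851 promoters of this length, and carries 1 GC box, GGGCGG on either strand, in capitals.
Mest: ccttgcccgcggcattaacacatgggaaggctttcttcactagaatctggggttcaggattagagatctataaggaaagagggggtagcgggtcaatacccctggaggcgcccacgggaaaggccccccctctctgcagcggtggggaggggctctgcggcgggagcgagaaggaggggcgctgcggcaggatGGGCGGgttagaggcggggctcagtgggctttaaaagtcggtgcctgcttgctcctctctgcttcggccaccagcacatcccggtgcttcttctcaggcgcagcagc
The microRNA gene Mir335 lies within Mest and is shown because it shares the host's locus. Its mature forms, with the seed (bases 2 to 8) in capitals, come from RefSeq positions chr6:30741314-30741336 and chr6:30741354-30741375 on the plus strand.
mmu-miR-335-5p: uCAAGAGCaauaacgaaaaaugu
mmu-miR-335-3p: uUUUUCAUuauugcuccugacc
The probe set named Mir335 read 1.64 to 1.69 in WT and 1.53 to 1.69 in KO, far under the level filter of 3.61. At that level it cannot show a difference in the microRNA. Copg2, which overlaps Mest in the gene table and encodes a coatomer subunit, differed by 0.21 (limma adjusted p = 0.808), in the opposite direction to Mest and short of the threshold.

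The other gene with an unadjusted p under 0.05 was Peg3, also lower in KO. It read 11.06, 11.18 and 11.18 in WT 1 to 3. In KO it read 10.23 in KO 1, 9.88 in KO 2, 10.53 in KO 3, 10.77 in KO 4 and 11.12 in KO 5. The WT values were nearly identical, while KO 1 to 4 spread out below them and KO 5 lay within the WT range. The means were 11.14 ± 0.0696 (SD, n = 3) and 10.50 ± 0.479 (SD, n = 5), a log2 difference of -0.64 (SE 0.245, 95% confidence interval -1.19 to -0.09). It did not pass after adjustment (limma adjusted p = 0.405, exact permutation p = 0.0714).

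Measurements at and beside the Peg3 locus followed it over the arrays, with r of 0.848 for a shared probe set and 0.910 for the neighbour Zim1, given as a description. The shared probe set is annotated to both Peg3 and its antisense transcript Peg3os, which it cannot separate. It read 7.50 to 7.80 in WT and 6.84 to 7.46 in KO, with no overlap (log2 difference -0.45, exact permutation p = 0.0357). Zim1, an imprinted zinc finger gene next to Peg3 on chromosome 7, read 9.75, 9.13 and 8.86 in WT 1 to 3. In KO it read 7.04, 6.42, 8.08, 8.67 and 8.37 in replicates 1 to 5, all below the lowest WT array. Groups without overlap were found for 8.53% of all genes tested. The log2 difference of Zim1 was -1.53 (SE 0.475, limma adjusted p = 0.331, exact permutation p = 0.0357), larger than that of Peg3 and also short of the threshold. Both genes were lowest in KO 2 and next lowest in KO 1, the arrays with the highest immediate early genes. Without KO 1 and KO 2 the Peg3 difference was -0.34 (limma adjusted p = 0.592). Without KO 5 it was -0.79 (limma adjusted p = 0.165). KO 5, the KO array within the WT range of Peg3, also had the lowest weight when limma weighted the arrays (0.335). The part of the immediate early genes in the Peg3 values was not tested. Usp29, on the other side of Peg3, read 1.62 on average in WT and 1.79 in KO, under the level filter.

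**Figure D1:**
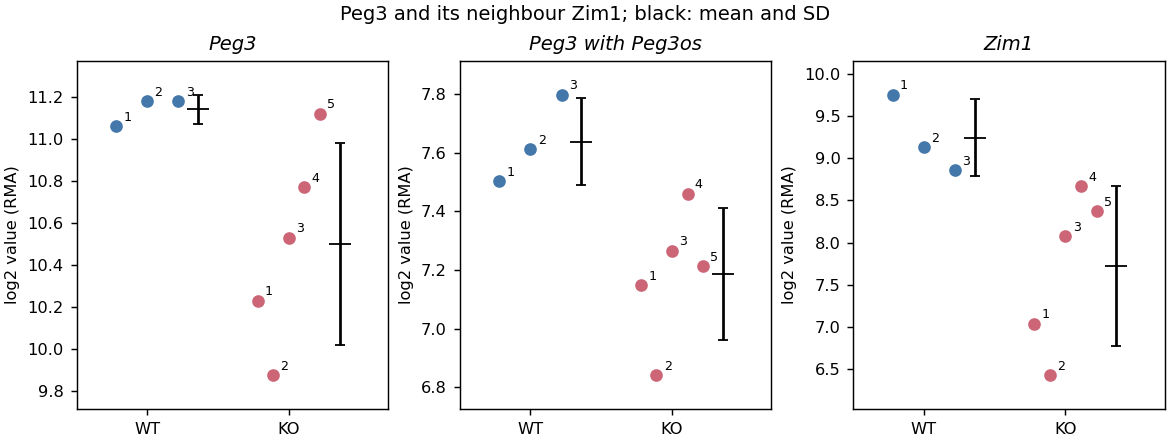
Log2 signal (RMA, vertical axes, not starting at 0) of the Peg3 probe set, of the probe set shared by Peg3 and Peg3os, and of Zim1 in 3 WT (blue) and 5 KO (red) arrays, 1 numbered point per array, with the mean and SD in black. All KO points lie below all WT points for the shared probe set and Zim1, while KO 5 (11.12) lies among the WT values of Peg3.

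Sfrp5 and Nnat were higher in KO on average, but the groups overlapped and neither gene passed the test. Sfrp5 read 3.09 in WT 1, 5.22 in WT 2 and 5.50 in WT 3. In KO 1 to 5 it read 6.29, 6.28, 5.46, 4.56 and 4.96. WT 1 stood far below all other arrays and was the only one under the level filter of 3.61. The other 2 WT arrays lay in the middle of the KO values. The log2 difference was 0.91 (SE 0.569, 95% confidence interval -0.36 to 2.18, limma adjusted p = 0.599), and it dropped to 0.15 without WT 1. Nnat read 8.59 in WT 1, 9.67 in WT 2 and 9.61 in WT 3. In KO 1 to 5 it read 9.86, 9.96, 9.73, 9.31 and 9.51. The same array, WT 1, was the lowest, and the KO arrays kept the same order as for Sfrp5 apart from KO 1 and KO 2, which differed little in either gene. Its log2 difference was 0.38 (SE 0.255, 95% confidence interval -0.18 to 0.95, limma adjusted p = 0.622), and 0.03 without WT 1. WT 1 was also the array with the highest testis markers and raised seminal vesicle markers, and the part of these in its low Sfrp5 and Nnat values was not tested. The dimmer probe set of Nnat followed the brighter one over the 8 arrays (r = 0.994) and gave a log2 difference of 0.34.

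Bmp3 separated the KO mice from each other. It read 3.73, 4.00 and 3.79 in WT 1 to 3. In KO it read 5.80 in KO 1, 6.11 in KO 2, 4.45 in KO 3, 3.67 in KO 4 and 3.55 in KO 5. KO 1, KO 2 and KO 3 were above every WT array and KO 4 and KO 5 below every one. WT averaged 3.84 ± 0.143 (SD, n = 3) and KO 4.71 ± 1.19 (SD, n = 5). The log2 difference of 0.87 (SE 0.560, 95% confidence interval -0.38 to 2.12, limma adjusted p = 0.610) was smaller than the KO standard deviation, and it was 0.05 without KO 1 and KO 2. All WT values lay close to the level filter of 3.61. KO 1, KO 2 and KO 3, the arrays with high Bmp3, were also those with the highest immediate early genes, and the part of these was not tested.

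Trp53inp2 did not separate the genotypes. It read 7.23, 8.07 and 8.01 in WT 1 to 3. In KO 1 to 5 it read 8.75, 8.78, 6.89, 7.47 and 7.34, on both sides of the WT range. The log2 difference was 0.08 (SE 0.441, limma adjusted p = 0.965), with a 95% confidence interval from -0.90 to 1.06 that includes a doubling. Its sign depended on single arrays: the difference was -0.19 without WT 1, -0.15 without KO 1 and -0.16 without KO 2.

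Across the 6 genes, 2 were lower and 4 higher in KO, and none passed after adjustment. Of all 11090 genes tested 0% passed, and the smallest adjusted p was 0.0752. At an unadjusted limma p under 0.05 there were 2 of the 6 (Mest and Peg3), where 10.5% of all genes tested had such a p. None of the 6 separated the groups without overlap, where 8.53% of all genes tested did. With the replicate number as a block, in which KO 4 and KO 5 add nothing, Bmp3 also had an unadjusted p under 0.05 (log2 difference 1.61, limma adjusted p = 0.130). In that fit Mest stood at -0.82 (limma adjusted p = 0.225), Peg3 at -0.93 (limma adjusted p = 0.126), and 18.0% of all genes had such a p. Sfrp5 stood at 1.41 (limma adjusted p = 0.286) and Nnat at 0.56 (limma adjusted p = 0.303) in the same fit. With array weights Bmp3 stood at 1.18 (limma adjusted p = 0.252), again with an unadjusted p under 0.05, as had 16.9% of all genes. After adjustment 40 genes passed with array weights, 5 without KO 5, 3 with a trended robust prior and 2 with the replicate block, none of them among the 6.

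**Figure D2:**
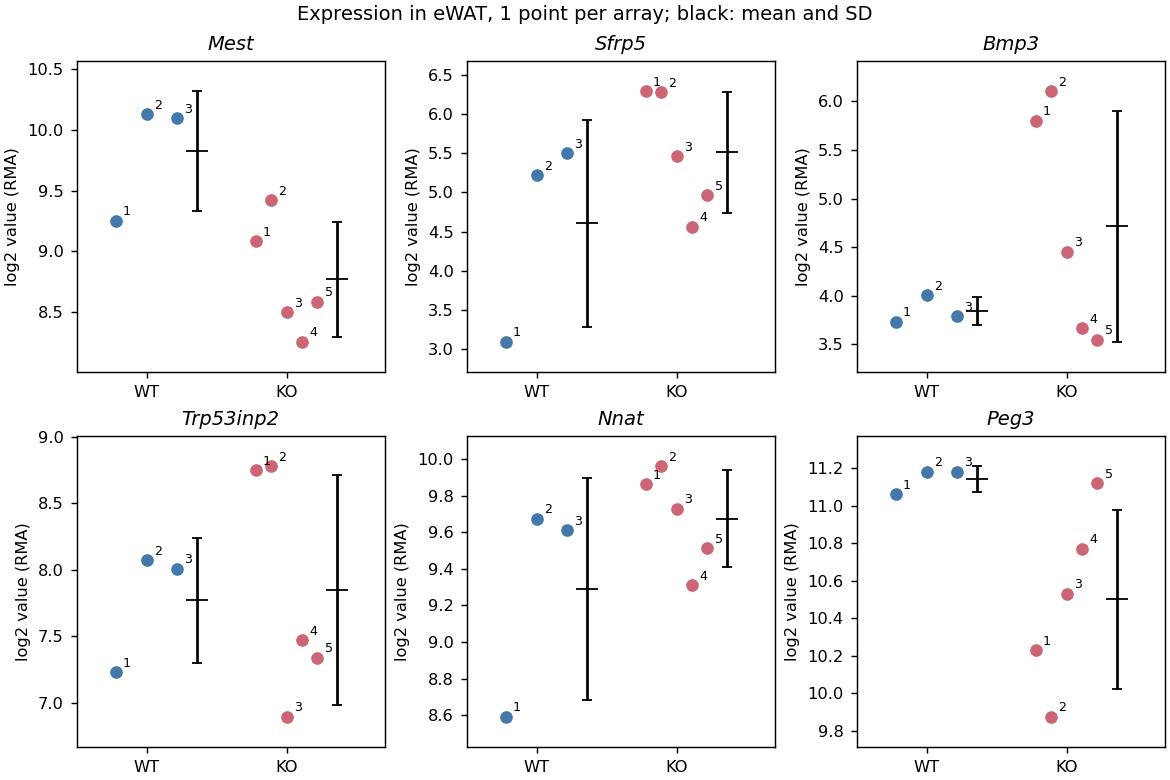
Log2 signal (RMA, vertical axes, not starting at 0) of the 6 genes in 3 WT (blue) and 5 KO (red) arrays, 1 numbered point per array, with the mean and SD in black. Mest is lower in KO apart from KO 2 (9.42), WT 1 is the lowest WT array in every panel, and KO 1 and KO 2 are the highest KO arrays in all panels but Peg3, where they are the lowest.

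**Figure D3:**
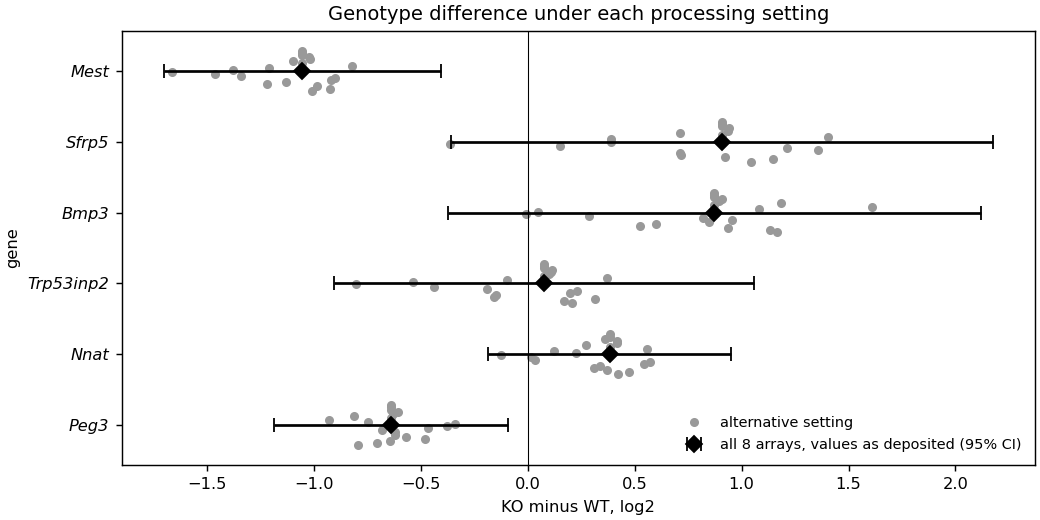
Difference KO minus WT (log2, horizontal axis) of each gene with all 8 arrays and the values as deposited (black diamonds, 95% confidence interval from limma) and under each alternative setting (grey points, including fits without 1, 2 or 3 arrays). Mest (-1.66 to -0.82) and Peg3 (-0.93 to -0.34) stay below 0 in every setting run, while Trp53inp2 lies on both sides. The -1.66 of Mest is from the fit without WT 1, KO 1 and KO 2, chosen after seeing the data.

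The variation between mice of 1 genotype was large for these genes. The SD within groups, pooled over WT and KO, was 0.989 for Sfrp5, 0.973 for Bmp3 and 0.757 for Trp53inp2, larger than that of 99.0%, 99.0% and 97.9% of the genes tested. For Mest it was 0.481 (92.6%), for Nnat 0.411 (87.8%) and for Peg3 0.393 (86.2%), where the median gene had 0.231. The spread was not shared evenly between genotypes. Bmp3 and Peg3 varied little in WT (SD 0.143 and 0.0696) and much in KO (SD 1.19 and 0.479), whereas Sfrp5 and Nnat varied more in WT (SD 1.32 and 0.607) than in KO (SD 0.775 and 0.263), through WT 1. With 3 and 5 mice these SDs are themselves uncertain, and their differences were not tested.

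The same mice were high or low for most of the 6 genes. Among the KO arrays, KO 1 and KO 2 were the highest 2 for Mest, Sfrp5, Bmp3, Trp53inp2 and Nnat, and the lowest 2 for Peg3. Among the WT arrays, WT 1 was the lowest for all 6. Of all genes tested, 21.2% had KO 1 and KO 2 as their highest KO arrays, 37.4% had WT 1 as the lowest WT array, and 8.32% had both, as 5 of these 6 did. The pattern was picked after these genes had been seen, so the shares are a description and no test. For Bmp3, WT 1 was the lowest by little (3.73 against 3.79 in WT 3).

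Whether the genes moved together was measured by the correlation over the 8 arrays in each of the 15 pairs, with an exact test over all 40320 pairings and adjustment over the pairs. Of these, 11 were positive, and the 4 negative ones all involved Peg3. Sfrp5 and Nnat moved together most closely (Pearson r = 0.979, exact p = 3.97e-04, adjusted p = 0.00595). Their Spearman rank correlation was 0.905 (exact p = 0.00456, adjusted p = 0.0342). The coefficient was 0.960 without the 2 arrays farthest from the Sfrp5 median, WT 1 and KO 1, and 0.973 with the group means removed. It was 0.988 without KO 1 and KO 2 (exact adjusted p = 0.167) and 0.928 without WT 1 and KO 4 (exact adjusted p = 0.0833), so with 6 arrays the pair no longer passed. WT 1 is the array with raised seminal vesicle markers and KO 4 the one with raised epididymis markers. Over the 8 arrays the joint mean of these markers, which mixes the 2 tissues, correlated with Sfrp5 at -0.832 and with Nnat at -0.834. That of the testis markers correlated at -0.830 and -0.807, and all are given as a description. Their part in the relation was not tested. Each of the 2 genes was the other's closest match among all genes tested. No other pair passed by Spearman and by both ways of forming the two-sided Pearson p.

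Bmp3 and Peg3 were opposed (r = -0.924, exact p = 0.00694, adjusted p = 0.0429), but by rank less so (Spearman -0.595, exact p = 0.132, adjusted p = 0.321). KO 1 and KO 2 stand apart from the other arrays for Bmp3. Over the remaining 6 arrays r was -0.609 (exact p = 0.322, adjusted p = 0.691), weaker and short of the threshold. Without KO 1 alone r was -0.916 and without KO 2 alone -0.851, and neither passed (exact adjusted p = 0.173 in both). Sfrp5 and Bmp3 also passed (r = 0.725, exact p = 0.0117, adjusted p = 0.0437, Spearman 0.810, adjusted p = 0.109), with r = 0.878 without WT 1 and KO 1 and 0.414 without KO 1 and KO 2. So did Bmp3 and Nnat (r = 0.628, exact p = 0.00858, adjusted p = 0.0429, Spearman 0.905, adjusted p = 0.0342), with r = 0.438 without KO 1 and KO 2. When the p was counted from the size of r in both directions, only Sfrp5 with Nnat (adjusted p = 0.00298) and Bmp3 with Peg3 (adjusted p = 0.0260) passed. Over all 8 arrays Trp53inp2 did not pass with any of the other 5 genes. Without KO 3, its lowest array, it passed with Sfrp5 (r = 0.884, exact adjusted p = 0.0159), Bmp3 (r = 0.908, exact adjusted p = 0.0164) and Nnat (r = 0.818, exact adjusted p = 0.0149). Its nearest were Sfrp5 (r = 0.683, exact p = 0.0407, adjusted p = 0.122) and Bmp3 (r = 0.755, exact p = 0.0487, adjusted p = 0.122, turning to -0.301 without KO 1 and KO 2).

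Mest followed Sfrp5, Nnat and Bmp3 little when the genotypes were pooled, and more closely when they were separated. Over all 8 arrays its r with Sfrp5 was 0.167 (exact p = 0.723, adjusted p = 0.813, Spearman 0.286, exact p = 0.501), with Nnat 0.139 and with Bmp3 0.0898. With Trp53inp2 its r was higher, at 0.506 (exact adjusted p = 0.273), and short of the threshold. Without WT 2 and WT 3, the arrays with the highest Mest, r stayed low with Sfrp5 (0.135) and Nnat (0.0111). It was then 0.634 with Bmp3 and 0.626 with Trp53inp2, so the low pooled r with Bmp3 depended on those WT arrays. After the group means were removed, which leaves the variation among mice of a genotype, r was 0.926 with Sfrp5, 0.884 with Nnat, 0.871 with Trp53inp2 and 0.773 with Bmp3, given as a description of these arrays. Where a WT and a KO array were close in Sfrp5, Mest could differ: WT 3 and KO 3 had 5.50 and 5.46 for Sfrp5 but 10.10 and 8.50 for Mest. Even WT 1, with the lowest Sfrp5 of all, had more Mest than 4 of the 5 KO arrays. When the Sfrp5 value of each array was added to the limma fit as a covariate, a choice made after the values had been seen, the Mest difference was -1.46 (SE 0.170, limma adjusted p = 0.135). Mest then had the smallest p of the 11089 genes in that fit, still short of the threshold, while Nnat stood at 0.02 and Bmp3 at 0.29. Sfrp5 was picked with these values in view, and its r of 0.926 with Mest within the groups makes a smaller SE follow. The rank of Mest is thus a description and no test. The fit assumes a common slope for both genotypes. In Sfrp5, KO 1 and KO 2 (6.29 and 6.28) lay above every WT array and WT 1 (3.09) below every KO array. The fit thus reaches beyond the values that both genotypes share.

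**Figure D4:**
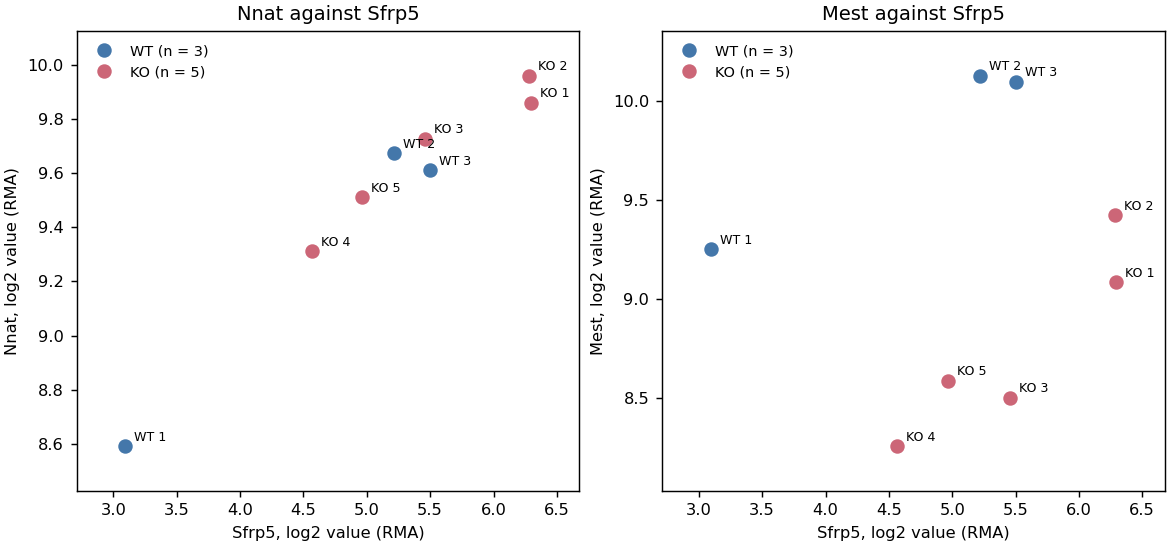
Log2 signal of Nnat (left) and Mest (right) against that of Sfrp5 in the same array (both axes RMA log2, not starting at 0), with WT arrays in blue and KO arrays in red. Nnat and Sfrp5 lie along 1 line for both genotypes (r = 0.979), whereas for Mest KO 3 (8.50) lies below WT 3 (10.10) at a like Sfrp5 value.

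**Figure D5:**
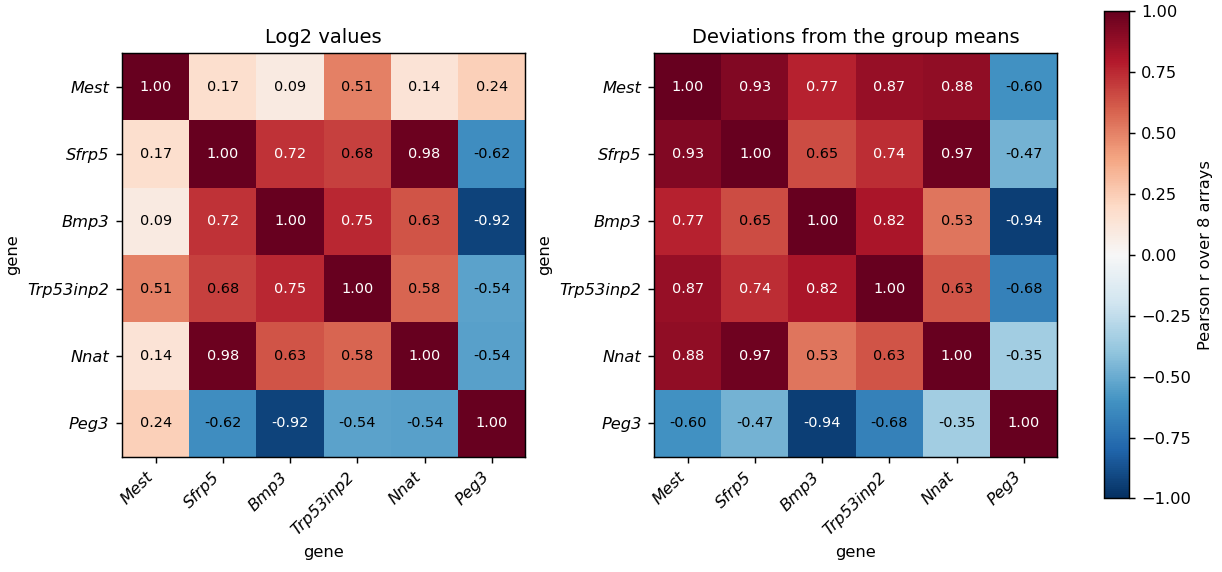
Pearson r over 8 arrays for each pair of the 6 genes, from the log2 values (left) and after subtracting each genotype's mean (right), coloured from -1 (blue) to 1 (red). Mest correlates at 0.09 to 0.51 with Sfrp5, Bmp3, Trp53inp2 and Nnat on the left and at 0.77 to 0.93 on the right, and Peg3 is negative with all 5 other genes on the right.

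The promoters of Sfrp5 and Nnat are shown because these genes moved together most closely, and those of Trp53inp2 and Peg3 because both hold the full cyclic AMP response element TGACGTCA, a palindrome found in 1.79% of the 32851 promoters of the same length in the RefSeq table. Each runs 5′ to 3′ on the gene's strand from 250 bases before to 50 after the annotated start (GRCm38.p6). Capitals mark TGACGTCA, the GC box GGGCGG and the CCAAT box CCAAT, each on either strand, which do not overlap one another in these 4 sequences. The motifs were chosen with the sequences in view. Sfrp5 lies at chr19:42202203-42202502 on the minus strand, Nnat at chr2:157559828-157560127 and Trp53inp2 at chr2:155381606-155381905 on the plus strand, and Peg3 at chr7:6730370-6730669 on the minus strand.
Sfrp5: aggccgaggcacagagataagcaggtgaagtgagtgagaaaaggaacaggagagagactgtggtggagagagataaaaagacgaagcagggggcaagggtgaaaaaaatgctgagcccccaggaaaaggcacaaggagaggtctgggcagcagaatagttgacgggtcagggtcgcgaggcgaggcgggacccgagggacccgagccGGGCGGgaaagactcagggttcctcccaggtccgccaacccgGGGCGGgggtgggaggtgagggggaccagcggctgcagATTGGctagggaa
Nnat: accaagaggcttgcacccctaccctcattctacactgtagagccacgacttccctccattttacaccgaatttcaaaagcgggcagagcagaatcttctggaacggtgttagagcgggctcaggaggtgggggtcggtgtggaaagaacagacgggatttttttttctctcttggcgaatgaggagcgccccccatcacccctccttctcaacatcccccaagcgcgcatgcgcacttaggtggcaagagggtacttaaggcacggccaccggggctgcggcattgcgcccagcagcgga
Trp53inp2: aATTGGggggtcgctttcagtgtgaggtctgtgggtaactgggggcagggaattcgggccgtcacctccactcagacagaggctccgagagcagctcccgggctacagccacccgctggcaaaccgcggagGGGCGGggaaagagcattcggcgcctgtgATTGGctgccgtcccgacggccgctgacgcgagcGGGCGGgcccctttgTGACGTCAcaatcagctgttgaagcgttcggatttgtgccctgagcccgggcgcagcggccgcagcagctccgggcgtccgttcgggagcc
Peg3: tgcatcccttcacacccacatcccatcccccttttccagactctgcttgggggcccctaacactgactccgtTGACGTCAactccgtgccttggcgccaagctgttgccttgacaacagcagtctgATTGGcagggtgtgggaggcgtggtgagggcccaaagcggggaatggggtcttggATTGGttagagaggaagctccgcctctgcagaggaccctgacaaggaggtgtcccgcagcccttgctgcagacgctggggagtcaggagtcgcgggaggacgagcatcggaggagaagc
The element TGACGTCA starts 41 bases before the annotated start in Trp53inp2 and 178 before it in Peg3, 2 genes that correlated at -0.538 over the 8 arrays (exact p = 0.178). The Sfrp5 promoter holds 2 GC boxes and 1 CCAAT box and that of Nnat neither, so the closest pair shared none of these motifs in this window. A GC box is in 35.7% and a CCAAT box in 37.4% of all such promoters.

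Genes outside the 6 that followed each member most closely over the 8 arrays were named by the size of r among the genes tested. With 8 arrays many genes reach a high r: 53 of 11089 exceeded 0.9 with Sfrp5, 35 with Nnat, 11 with Mest, 172 with Bmp3, 24 with Trp53inp2 and 74 with Peg3. For Mest they were the cell adhesion molecule Mcam (r = 0.958), the membrane metalloprotease Adam15 (0.949) and the phospholipase C-like Plcl2 (0.933). For Sfrp5 they were, after Nnat, the interferon-induced Rsad2 (0.971) and the monoacylglycerol lipase Mgll (0.969). For Nnat, after Sfrp5, they were Dlc1 (0.966) and Ccdc141 (0.965), with 0.866 and 0.874 without WT 1. The nearest to Bmp3 were the retinol carrier Rbp4 (0.981), the phosphatase Inpp5d (0.978) and the fatty acid oxidation enzyme Acadl (0.975). Trp53inp2 was followed by the centrosomal Cdk5rap2 (0.964), the milk fat globule protein Mfge8 (0.962) and Tjap1 (0.956). Peg3 was followed by the phosphoinositide 3-kinase regulatory subunit Pik3r3 (0.982), Zfp939 (0.978) and the histone methyltransferase Setdb1 (0.976).

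Other genes of the members' pathways gave a mixed picture, and in no list did a gene pass after adjustment over all genes. Beside the counts of each list stand the shares over all genes tested: 44.8% were higher in KO and 10.5% had an unadjusted p under 0.05. Of 30 other imprinted genes 26 were measured and 12 tested, 5 higher and 7 lower in KO, with a median log2 difference of -0.08 against -0.03 over all genes tested. Besides Zim1, Grb10, an inhibitor of insulin receptor signalling, had an unadjusted p under 0.05 (-0.58, SE 0.207, limma adjusted p = 0.370). Igf2 (-0.31, WT mean 4.01) and Peg10 (0.41, WT mean 4.80) did not.

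Sfrp5 belongs with the Wnt inhibitors, of which 17 others were measured and 7 tested, 6 of these higher and 1 lower in KO (median 0.32), none with an unadjusted p under 0.05. Over all 17, with those below the level filter, the median was 0.10. Among the 7 tested, the smallest p-values were those of Znrf3 (-0.29, limma adjusted p = 0.483), a ligase that removes Wnt receptors, and Sfrp1 (0.39, limma adjusted p = 0.524). Nkd1, an intracellular Wnt inhibitor, stood at 0.59 and Apcdd1 at 0.32. Of 39 Wnt ligands, receptors and targets 38 were measured and 21 tested, 9 higher and 12 lower (median -0.08). Only Axin2, a widely used readout of beta-catenin signalling, had an unadjusted p under 0.05. WT averaged 7.27 ± 0.210 (SD, n = 3) and KO 6.37 ± 0.728 (SD, n = 5), and the log2 difference was -0.90 (SE 0.359, limma adjusted p = 0.423). Axin2 was lowest in KO 1 (5.39) and KO 2 (6.00), the arrays with the highest immediate early genes, whose part was not tested. KO 5 (7.295) lay within the WT range of 7.07 to 7.49. The receptor Fzd4 stood at 0.35, Axin1 at -0.23 and Fzd7 at -0.32.

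Among 30 other genes of the BMP pathway 29 were measured and 24 tested, 10 higher and 14 lower in KO (median -0.10). Noggin (Nog), a secreted BMP antagonist, read 4.32 ± 0.533 (SD, n = 3) on average in WT and 3.50 ± 0.149 (SD, n = 5) in KO. Its KO mean lay below the level filter of 3.61, so it was tested only through its WT values and no test is drawn from it. The activin receptor Acvr2a was at -0.31 (limma adjusted p = 0.454), the antagonist Chrd at -0.38 and Fst at -0.28. Of 28 autophagy genes beside Trp53inp2, 27 were measured and 26 tested, 8 higher and 18 lower. Their median of -0.08 was 0.02 without WT 1, -0.009 without KO 5 and -0.0005 with the replicate block. Atg9a (-0.35, limma adjusted p = 0.371) and Gabarapl1 (-0.47, limma adjusted p = 0.433) had no overlap between the groups, as had 8.53% of all genes tested. Nbr1 (-0.35) and Atg3 (-0.23) overlapped.

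Leptin, whose transcript follows fat mass, differed by 0.25 (SE 0.376, limma adjusted p = 0.846). Of the 6 genes of leptin and the caveolae, the membrane pits abundant in adipocytes, 5 were higher and 1 lower in KO (median 0.25, which was 0.07 without WT 1 and 0.43 without WT 2). For Cav2, WT averaged 8.39 ± 0.364 (SD, n = 3) and KO 9.10 ± 0.292 (SD, n = 5) without overlap (log2 difference 0.71, SE 0.207, limma adjusted p = 0.314), as for 8.53% of all genes tested. Cavin3 (0.45) and Cav1 (0.24) overlapped.

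The genes next to the other members in the gene table were also measured. Zfyve27 beside Sfrp5 differed by 0.03 between the groups (limma adjusted p = 0.956). Blcap, whose gene overlaps Nnat, differed by 0.24 (limma adjusted p = 0.599), Pigu and Ncoa6 on either side of Trp53inp2 by 0.32 and 0.04, and Src before Nnat by 0.30. Both neighbours of Bmp3 lay below the level filter and were not tested: Cfap299 averaged 2.95 in WT and 2.20 in KO, a difference of -0.74 with 4 of 5 KO arrays below every WT array, and Prkg2 differed by 0.08. Copg2 and Mest, Blcap and Nnat, and Peg3 and Peg3os overlap in the annotation, and how far their probe sets share signal was not tested.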

How the data were processed

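RNA (200 ng per array) from eWAT of 3 WT and 5 KO mice was hybridised to an Affymetrix mouse gene array. The deposited values are on a log2 scale, and RMA and oligo appear in the submitters' processing notes, whereas the design text names Expression Console. Which of them produced the values is not settled, and their versions and any genome build are not stated in the labels. Array medians were 2.93 to 3.12. Arrays carry no counts, so their number limits the precision.

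Of 41345 probe sets, 23521 had 1 symbol, 1814 several and 16010 none listed, and 23328 matched a gene table of GRCm38.p6 by Entrez identifier, used for current symbols and neighbours. The brightest probe set per gene was kept, and genes whose mean over the arrays reached the median gene (3.61) were tested with limma 3.58.1 (R 4.3.3), with Benjamini-Hochberg adjustment over all genes tested. Permutation tests were exact and two-sided, 2 times the smaller tail. The procedures were tested on simulated data. Of each pathway list up to 4 tested genes of smallest p are named, and per member the 3 most alike tested genes, leaving out predicted genes and small RNAs. Erythroid markers were not measured by single-symbol probe sets (0 of 5). The members and lists were chosen with earlier results of these data known.

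WT and KO share replicate numbers 1 to 3. After subtraction of the group means, same-numbered arrays correlated over all genes tested at 0.133, 0.103 and 0.192, all above 0.1. On that ground the numbers were taken to pair the arrays in the alternative fit with a replicate block. The unlike-numbered WT 2 and KO 1 also passed 0.1, at 0.105, above WT 2 with KO 2. The check therefore does not single out the shared numbers, and the pairing stays uncertain. What a number stands for is not stated. Nothing says that replicates differ in litter or day of handling, so p-values measure the spread between these mice.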

Additional observations from a re-analysis of the deposited data

Results flagged for a closer look

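Of 25 sets of 5 KO values examined (the 6 genes, Mir335 and the means of the 18 lists with measured genes), 2 had an array far from the others, where about 1 in 20 is flagged by chance. The mean of the epididymis and seminal vesicle markers was 4.56 in KO 4 against 2.56 in the next highest KO array, mainly through Adam7 (10.24) and Lcn5 (8.56). The mean of the other imprinted genes was 4.29 in KO 1 against 4.18 in the next highest. None of the 6 genes had such an array among the KO mice.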

How the results depend on the processing

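In all 20 alternatives Mest stayed lower in KO (-1.66 to -0.82) with an unadjusted p under 0.05. Peg3 stayed lower (-0.93 to -0.34), with such a p in 14 of 20. The alternatives reuse the same arrays and several give the same Mest difference, so their number does not measure support. The -1.66 came from the fit without WT 1, KO 1 and KO 2, chosen after seeing the data. That fit left out the lowest WT array of Mest and its highest KO arrays, so a wider difference was fixed in advance. The fit with Sfrp5 as a covariate was also chosen after seeing the data. No member passed after adjustment in any setting. The replicate block gave 0.37 for Trp53inp2 and changed no adjusted call of the 6 genes.

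Trp53inp2 turned negative when KO 1 and KO 2 were left out (-0.54), when WT 1 and KO 4 were (-0.10), with Sfrp5 as a covariate (-0.44) and without WT 1, KO 1 and KO 2 (-0.81), and leaving out 1 array gave -0.19 to 0.32. Without WT 1, KO 1 and KO 2, chosen after seeing the data, Sfrp5 (-0.36), Nnat (-0.12) and Bmp3 (-0.0067) also turned, and the cause was not tested.

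The number of correlated pairs, 4 over all arrays, was 2 with arrays centred on their median, 2 by the size of r, 1 (Bmp3 with Nnat) when WT 1 and KO 4 were left out, and 0 both without KO 1 and KO 2 and with KO arrays alone, where fewer arrays were used; leaving out 1 array gave 1 to 4, not always of the same pairs. Without KO 3 they were Sfrp5 with Nnat and 3 pairs with Trp53inp2. Mest with Bmp3 turned to -0.088 without WT 1 and KO 4, and leaving out 1 array gave -0.074 to 0.265, below 0 without KO 2, KO 4 or KO 5. Without KO 1 and KO 2, Bmp3 with Trp53inp2 turned to -0.30 and Trp53inp2 with Peg3 to 0.74, and in KO alone Mest with Peg3 turned to -0.83 (5 arrays).

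Without the level filter the medians of imprinted genes, Wnt inhibitors and other Wnt genes moved to 0.066, 0.099 and 0.0195. With the replicate block those of imprinted and BMP genes moved to -0.007 and -0.20. Leaving out 1 array gave -0.149 to 0.0031 for imprinted genes, 0.106 to 0.405 for Wnt inhibitors and -0.135 to -0.0173 for other Wnt genes.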
